A study of Homo sapiens with 18 samples.

Results

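The genes described here are 59 interferon-induced genes, nucleic acid sensors and interferon signalling factors, taken by name from a list, out of 55765 genes in a table of normalized counts. All 59 names were in the table, and 48 had a mean normalized count of at least 10 over the 18 libraries and were tested. The cells were G401, a line grown from a malignant rhabdoid tumour, a childhood cancer in which the SWI/SNF subunit SMARCB1 is lost. Polyadenylated RNA was sequenced from 6 groups of 3 libraries each. The control line, called WT, was wild type for RB1 and had been edited with CRISPR/Cas9 at AAVS1, a neutral site. The other lines, E1 and F2, were edited by the same method to delete both alleles of RB1, which encodes the retinoblastoma protein, and each is 1 clone, so that a clone and its genotype cannot be told apart. Every line was grown for 11 days with DMSO, the solvent, or with 10 µM tazemetostat, an inhibitor of EZH2, the enzyme that places the repressive H3K27 methyl mark. The labels call the replicates biological triplicates and do not say how the cultures were separated, so that the p-values measure the spread between these libraries.

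Interferons are secreted proteins that warn cells of infection. Type I interferons bind IFNAR1 with IFNAR2, and interferon gamma binds IFNGR1 with IFNGR2. Both receptors signal through JAK kinases to STAT proteins, and complexes that hold STAT2 and IRF9 bind the interferon-stimulated response element (ISRE) in the promoters of the antiviral genes. Upstream, RNA sensors such as DDX58 (RIG-I) and IFIH1 (MDA5) act through MAVS, and the DNA sensor MB21D1 (cGAS) acts through TMEM173 (STING), to switch interferon genes on.

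The libraries held 25709489 to 39314860 reads recovered from the table. RB1 was 2828, 2687 and 2565 normalized counts in the WT libraries in DMSO. It was 658, 505 and 780 in E1 and 861, 804 and 852 in F2, all below WT (log2 difference −2.08 and −1.68, limma adjusted p = 5.7e-11 and 2.3e-09). SMARCB1 had no reads in any library. Of 9 leukocyte markers, 3 or 4 per group had more than 3 reads in a library. Their summed level came chiefly from CSF1R and CD68. It ran from 58.5 to 63.1 in WT in DMSO and 87.4 to 106 with tazemetostat, from 92.9 to 125 and 110 to 132 in E1, and from 61.2 to 77.7 and 61.2 to 79.7 in F2. CSF1R was higher in E1 than in WT in DMSO (log2 difference 1.04) and CD68 rose in E1 with the drug (1.06), while PTPRC, which defines leukocytes, was at 0 to 1.85. The 3 markers of plasmacytoid dendritic cells, which are strong interferon makers, never passed 3 reads and summed to 0 to 1.94. The endothelial markers CDH5 and VWF summed to 0.946 to 8.93 in DMSO and to 27.1 to 65.6 with tazemetostat, so that they moved with the treatment. The part of these markers in the results was not tested. In bulk RNA, fewer expressing cells and less RNA per cell cannot be told apart.

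The members fell into 4 classes by their reads. A library was counted as at the floor for a gene when it held 3 reads or fewer. The first class holds 12 genes that were at the floor in all 9 DMSO libraries and rose with tazemetostat in all 3 lines, namely IFIT2, IFIT3, IFI16, IFIH1, OAS1, RSAD2, XAF1, SAMD9, SAMD9L, GBP1, GBP2 and GBP4. Another 4 genes were at the floor in DMSO and reached at most a few reads with tazemetostat (IFI44, IFI44L, MB21D1 and OASL). A further 6 were at the floor in all 18 libraries (MX1, MX2, CMPK2, EPSTI1, HERC5 and IFNB1). The other 37 were above the floor in at least 1 DMSO library. The classes were read from the same values as the comparisons and are a description.

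**Figure D1:**
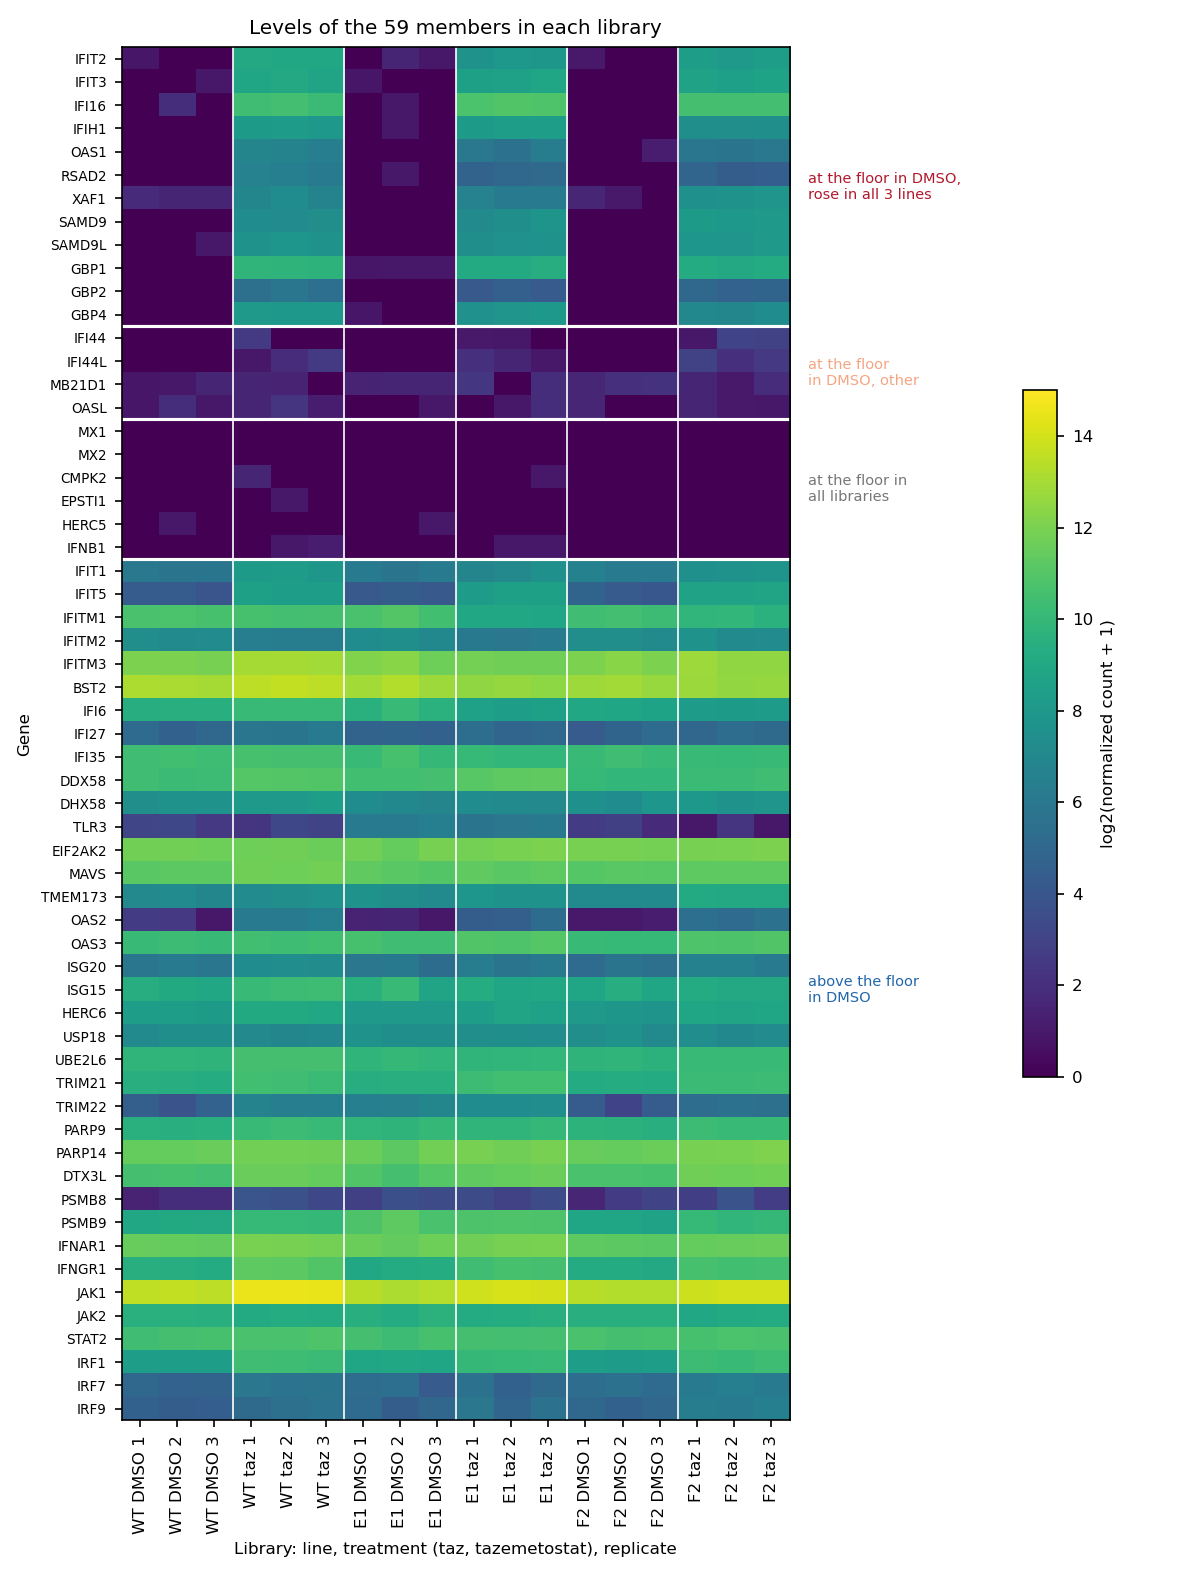
Level of each of the 59 genes (rows) in each of the 18 libraries (columns), as log2(normalized count + 1), with white lines between groups and between classes of genes. The 12 genes of the top class are dark in all 9 DMSO libraries and bright in all 9 tazemetostat libraries, while the 6 genes of the class at the floor in all libraries stay dark throughout.

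Genes next to each other on the chromosome did not always share a class. IFIT2 and IFIT3 are neighbours and both belong to the first class, as do GBP1 and GBP2, and SAMD9 and SAMD9L. MX2 and MX1 are neighbours and both stayed at the floor in every library. RSAD2, which encodes the antiviral enzyme viperin, rose in all 3 lines, while its neighbour CMPK2, a nucleotide kinase commonly induced together with it, had at most 2 reads. HERC6 was expressed in every library and its neighbour HERC5, the main ligase that attaches ISG15 in human cells, had at most 1 read. Exons of RSAD2 and CMPK2 overlap on opposite strands, and the strand setting of the counting is not given in the sources used here.

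Promoter sequences from RefSeq (build GRCh38.p14, from 250 bases before to 50 bases after each start) were found for 47 of the 59 genes, in 67 windows. The letters of an ISRE core (GAAA, any 2 bases and GAAA again), searched on both strands with overlapping matches allowed, stood in at least 1 window of 28 of these 47 genes (59.6%), against 4.38% of 27305 genes in the promoter table. The letters TTCNNNGAA of a GAS element, a site of the interferon gamma response, which can share letters with the first motif, stood in 13 of the 47 (27.7%), against 9.38% of all genes. A match describes letters and is no evidence of binding. The stretches below run from 200 to 41 bases before the start and are printed 5′ to 3′ on the gene's own strand, with the ISRE letters or their reverse complement (TTTC, any 2 bases and TTTC again) in capitals. They show that these letters occur in genes that rose from the floor (IFIT3, GBP1 and RSAD2), in genes that stayed at the floor (HERC5 and EPSTI1), and in genes expressed in DMSO whose response differed between lines (ISG15 and IFI6). For a gene with several windows, the one with the most matches in this stretch was printed. RSAD2 has another window, at another start, that holds no match.
IFIT3, chr10:89327797-89327956, plus strand: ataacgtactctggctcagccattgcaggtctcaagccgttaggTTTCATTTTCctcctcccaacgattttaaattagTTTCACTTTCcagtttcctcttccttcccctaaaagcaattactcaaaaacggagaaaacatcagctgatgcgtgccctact
GBP1, chr1:89065249-89065408, minus strand: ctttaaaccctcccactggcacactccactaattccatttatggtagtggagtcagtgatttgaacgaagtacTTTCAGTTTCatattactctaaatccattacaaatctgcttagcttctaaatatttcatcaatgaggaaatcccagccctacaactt
RSAD2, chr2:6877577-6877736, plus strand: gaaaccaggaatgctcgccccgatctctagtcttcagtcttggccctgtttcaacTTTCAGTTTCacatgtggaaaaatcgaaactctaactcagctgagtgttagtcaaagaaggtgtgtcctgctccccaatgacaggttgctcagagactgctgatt
HERC5, chr4:88456919-88457078, plus strand: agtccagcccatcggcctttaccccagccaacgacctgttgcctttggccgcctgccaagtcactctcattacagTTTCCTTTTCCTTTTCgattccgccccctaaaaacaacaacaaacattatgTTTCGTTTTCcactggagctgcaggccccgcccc
EPSTI1, chr13:42992282-42992441, minus strand: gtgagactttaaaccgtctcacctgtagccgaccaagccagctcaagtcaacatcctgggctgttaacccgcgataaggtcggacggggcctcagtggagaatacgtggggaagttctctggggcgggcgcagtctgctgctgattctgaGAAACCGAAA
ISG15, chr1:1013297-1013456, plus strand: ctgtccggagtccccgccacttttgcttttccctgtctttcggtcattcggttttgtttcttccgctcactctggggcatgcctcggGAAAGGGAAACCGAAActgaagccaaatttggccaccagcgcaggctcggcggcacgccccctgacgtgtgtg
IFI6, chr1:27672233-27672392, minus strand: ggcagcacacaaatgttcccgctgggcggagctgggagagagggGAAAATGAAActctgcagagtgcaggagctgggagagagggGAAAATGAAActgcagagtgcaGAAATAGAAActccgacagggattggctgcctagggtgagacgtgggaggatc
IFIT3 holds 2 separate matches and GBP1 and RSAD2 hold 1 each. HERC5 has 3, of which a pair overlap, and EPSTI1 has 1. In ISG15 the 2 matches overlap, and IFI6 carries 3, of which 2 lie in a repeated stretch.

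The share of genes with these letters was 60% in the class that rose from the floor, 60% in the class at the floor in all libraries and 56.7% in the class above the floor. It was 100% for IFI44 and IFI44L, the genes with a window in the class that reached few reads. The CpG ratio of the windows, the observed number of CG pairs over the number the base composition would give, had a median of 0.24 (range 0.00 to 0.64) over the 10 genes with a window that rose from the floor. It was 0.71 (0.11 to 0.78) over 5 genes at the floor in all libraries, 0.69 (0.10 to 1.10) over 30 genes above the floor in DMSO, and 0.56 over all genes in the promoter table. In IFI44 and IFI44L, which hardly rose, it was 0.00, below the median of the genes that rose. The ranges overlap, the classes were read from the data, and no test was made. IFIT2, IFITM2, DHX58, TMEM173, MB21D1, OAS2, OASL, MX2, USP18, TRIM22, GBP2 and IRF7 had no entry.

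**Figure D2:**
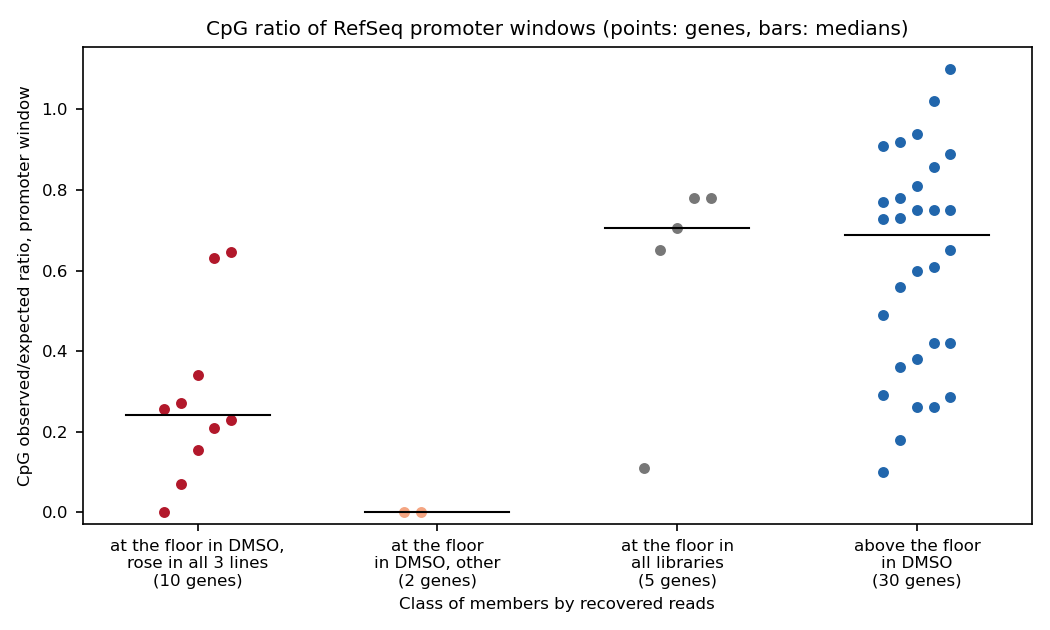
CpG observed/expected ratio of the RefSeq promoter windows (vertical axis, no unit) for the members with a window, by class, with a point for each gene (mean over its windows) and a bar at the median. The medians are 0.24 for genes that rose from the floor and 0.69 for genes above the floor in DMSO, and the points of these classes overlap.

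With tazemetostat, 22 of the 48 tested genes rose in WT and as many in F2, 17 rose in E1, and 17 genes rose in all 3 lines. Called here means a limma adjusted p (Benjamini-Hochberg over 16154 genes) under 0.05 and a change of at least 1 in size on the scale log2(normalized count + 1). None fell in WT or F2, and 3 fell in E1 (IFI6, IFITM1 and IFITM2). Over all genes tested, 14.5% were called higher and 6.77% lower in WT. The shares were 11.3% and 3.78% for clone E1, and 13.3% and 3.71% for clone F2. The median log2 change of the 48 genes was 0.97, 0.49 and 0.93 in WT, E1 and F2, and was the same to 2 decimals with genes at 0 in DMSO set to the lower bound of their change. Over all genes the medians were 0.03, 0.02 and 0.02. The first class entered the test only through its levels with tazemetostat and had to differ. Among the 36 tested genes above the floor in DMSO, 10 rose in WT, 10 in F2 and 5 in E1. One of them, OAS2, averaged 3.63, 1.56 and 1.09 in DMSO in WT, E1 and F2. OAS2 also entered the test only through its levels with tazemetostat, so that its place in each count was fixed in advance. The 5 of E1 (IFIT1, IFIT5, IFNGR1, IRF1 and OAS2) rose in all 3 lines, and the other 12 of the 17 genes are the first class. The share of all genes called in all 3 lines was not counted.

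**Figure D3:**
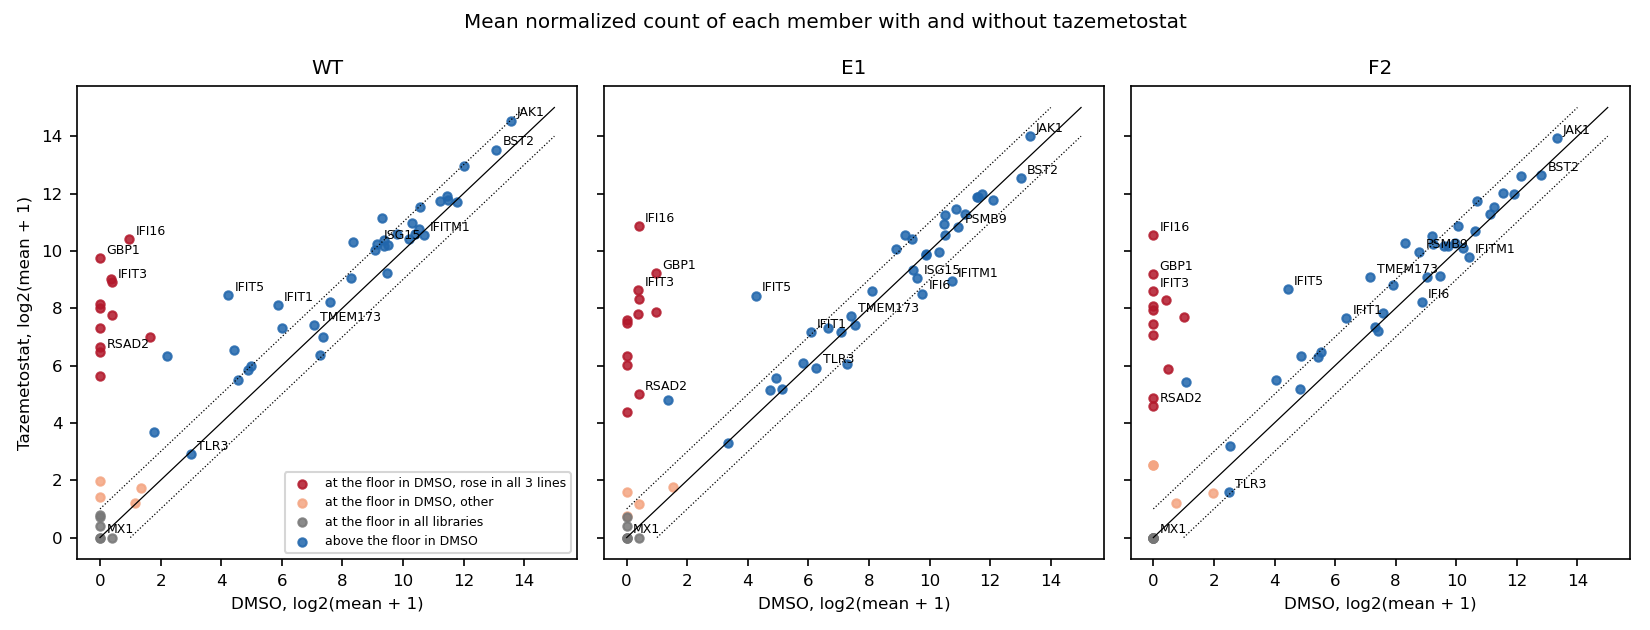
Mean normalized count of each of the 59 genes in DMSO (horizontal) and with tazemetostat (vertical), as log2(mean + 1), in WT, E1 and F2, with colours for the 4 classes. The solid line marks equal levels and the dotted lines a log2 change of 1 in either direction. Genes that rose from the floor lie along the left edge in all 3 panels, and IFITM1 and IFI6 lie below the lower dotted line in E1.

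**Figure D4:**
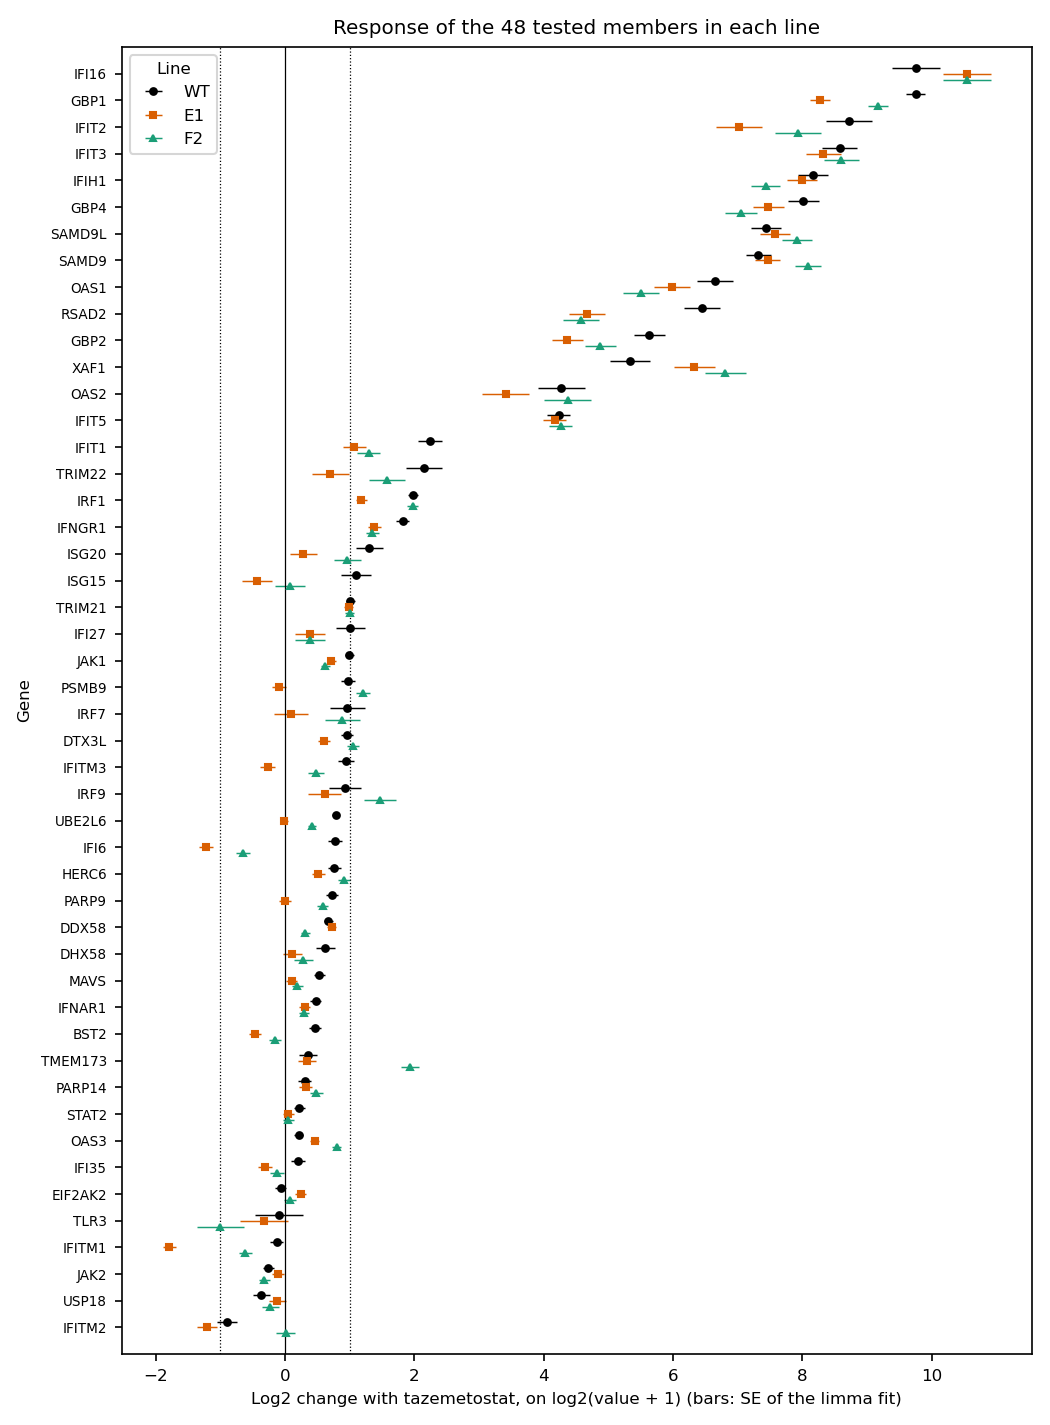
Log2 change with tazemetostat of the 48 tested genes (rows) in WT, E1 and F2 (symbols), on the scale log2(normalized count + 1), with bars of 1 standard error from the limma fit and dotted lines at −1 and 1. From IFI16 down to OAS2 and IFIT5 all 3 lines lie above 3, and further down the symbols of E1 lie left of WT for genes such as ISG15, IFI6 and IFITM1.

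The ligand of the list, IFNB1 (interferon beta), had at most 1 read in a library and was not tested. Interferon gamma, which is no member, had no reads in the 9 DMSO libraries. With tazemetostat IFNG was 35.5, 26.2 and 20.9 normalized counts in WT, 5.32, 15.5 and 9.42 in E1, and 3.88, 10.1 and 12.9 in F2. Against a floor of 3 reads over the group, that is at least 30.4-fold, 10.8-fold and 8.32-fold higher. All 3 WT libraries lay above all 6 RB1-null libraries. IFNG fell under the limit on the mean and was not tested. Of the 20 interferon ligand genes on the wider pathway list none was tested, and IFNE, an epithelial type I interferon, reached 3.87 normalized counts at most.

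Of the receptors and signalling factors, IFNGR1 and IRF1 rose in all 3 lines. IFNGR1, the ligand-binding chain of the interferon gamma receptor, was 684, 637 and 592 in WT in DMSO and 2460, 2386 and 1927 with tazemetostat. In E1 it went from 512, 589 and 627 to 1339, 1613 and 1549, and in F2 from 601, 602 and 539 to 1570, 1417 and 1444. The groups did not overlap in any line, and the log2 changes were 1.82 ± 0.10, 1.38 ± 0.10 and 1.35 ± 0.10 (SE; limma adjusted p = 1.3e-11, 1.0e-09 and 1.3e-09).

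IRF1, a transcription factor that interferon gamma induces and that switches on many antiviral genes, was 326, 322 and 320 in WT in DMSO and 1370, 1297 and 1176 with tazemetostat. It went from 445, 506 and 460 to 1005, 1055 and 1149 in E1 and from 322, 302 and 323 to 1270, 1148 and 1313 in F2. E1 started above both other lines in every library, and with the drug its libraries lay below those of WT and overlapped those of F2. Its log2 change was 1.98 in WT and 1.97 in F2, and 1.18 in E1. The response of E1 was smaller than that of WT by 0.80 (adjusted p = 2.4e-05), under the size limit.

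IRF9, the DNA-binding partner of STAT2, rose in F2, from 30.7, 23.9 and 30.3 to 79.6, 71.7 and 88.8 (log2 change 1.47 ± 0.25, limma adjusted p = 6.8e-05). In WT it went from 24.5, 20.7 and 21.8 to 35.5, 45.8 and 50.5 (0.93), and in E1 from 37.5, 20.3 and 30.2 to 59.6, 29 and 49, with overlapping groups. IRF7, the amplifier of type I interferon production, stood at 25.4 to 33.2 in WT in DMSO and 52.4 to 61.1 with tazemetostat (log2 change 0.96), and its change was 0.88 in F2 and 0.09 in E1. Neither the change in WT nor that in F2 reached the size limit.

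JAK1, the kinase shared by both receptors, was 12095, 12502 and 11611 in WT in DMSO and 24488, 23759 and 23502 with tazemetostat. That change of 0.99 lies just under the limit, and the changes in E1 and F2 were 0.71 and 0.62, with no overlap of the groups in any line. JAK2, the kinase of the interferon gamma receptor, changed by −0.26, −0.11 and −0.32 in WT, E1 and F2. IFNAR1, a chain of the type I receptor, changed by 0.47, 0.30 and 0.29, and STAT2, the type I signal transducer, by 0.22, 0.05 and 0.05. None of these 3 genes was called in any line.

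Among the 9 sensors and adaptors, 2 of the 8 tested rose in WT and E1 and 3 in F2, where 14.5%, 11.3% and 13.3% of all genes did. IFI16 and IFIH1, which rose in all lines, entered the test only through their levels with tazemetostat, and of the 6 others TMEM173 rose, in F2. IFIH1, which senses long double-stranded RNA, had 0 normalized counts in 8 of the 9 DMSO libraries and 0.965 in the other. With tazemetostat it was 289, 316 and 252 in WT, 287, 327 and 338 in E1 and 173, 168 and 176 in F2. Against the floor this is at least 314-fold higher in WT and 159-fold in F2, and in E1, with 1 read in DMSO, 1014-fold with a counting interval of 182 to 40094.

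IFI16, a sensor of DNA in the nucleus and cytosol, had 3 reads in the WT libraries in DMSO, 1 in E1 and none in F2. With tazemetostat it was 1354, 1491 and 1207 in WT, 1729, 1955 and 1898 in E1 and 1532, 1445 and 1494 in F2. Every library with the drug lay far above every DMSO library, and the rise in F2 was at least 1374-fold. The fitted log2 changes of IFI16 and IFIH1 were 9.75 and 8.16 in WT, 10.54 and 7.99 in E1, and 10.54 and 7.43 in F2. Such values depend on the pseudocount when the DMSO level is near 0. As both genes entered the test only through their levels with tazemetostat, they had to differ, and no p-value is given.

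TMEM173, the adaptor of the DNA sensing pathway, rose in F2 only by the limits used. It went from 144, 139 and 144 to 584, 531 and 520 in F2, from 134, 149 and 115 to 149, 168 and 192 in WT, and from 199, 171 and 139 to 233, 197 and 208 in E1. The F2 libraries with tazemetostat stood above all others, and the groups of WT and of E1 overlapped. The log2 change in F2 was 1.93 ± 0.14, which is 3.82-fold. The response of F2 exceeded that of WT by 1.57 ± 0.19 and that of E1 by 1.59 ± 0.19 (limma adjusted p = 6.9e-06 and 9.3e-06). MB21D1, which makes the messenger that activates it, stayed between 0 and 4.26 normalized counts in every library.

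TLR3, the endosomal receptor for double-stranded RNA, separated E1 from the other lines under both treatments. It was 67.9, 71.4 and 88.6 in E1 in DMSO, against 7.86, 8.48 and 4.73 in WT and 5.12, 6.22 and 2.43 in F2. With tazemetostat it was 53.2, 60.9 and 66 in E1, 3.94, 8.42 and 7.39 in WT, and 0.971, 4.04 and 0.925 in F2. All 6 E1 libraries were above all 12 others, and no line changed past the limits with the drug. TLR3 entered the test only through its levels in E1.

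The other RNA sensors were expressed in DMSO and moved little. DDX58 was 1328, 1216 and 1245 in WT in DMSO and 2085, 2031 and 1912 with tazemetostat (log2 change 0.67), and changed by 0.72 in E1 and 0.31 in F2. DHX58 (LGP2), a regulator of the other RNA helicase sensors, changed by 0.62, 0.11 and 0.28 in WT, E1 and F2. EIF2AK2 (PKR), the kinase that stops translation on double-stranded RNA, changed by −0.07, 0.24 and 0.08, and MAVS by 0.53, 0.10 and 0.19. None of these 4 genes passed the size limit in any line.

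All 4 IFIT genes, whose proteins bind viral RNA and block its translation, rose in all 3 lines, where 14.5%, 11.3% and 13.3% of all genes rose in WT, E1 and F2. Of the 4, IFIT2 and IFIT3 were at the floor in DMSO and entered the test only through their levels with tazemetostat. IFIT1 was 63.8, 53.7 and 54.9 in WT in DMSO and 292, 296 and 240 with tazemetostat. It went from 69.7, 53.1 and 76 to 113, 130 and 181 in E1 and from 94.2, 74.7 and 75.2 to 181, 204 and 215 in F2. The log2 changes were 2.24, 1.07 and 1.29 (limma adjusted p = 2.0e-09, 5.3e-05 and 4.8e-06). That of E1 lies near the limit, and it was 0.92 without E1 DMSO replicate 2 and 0.87 without E1 tazemetostat replicate 3.

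IFIT5 had nearly equal changes in the 3 lines. It went from 19.2, 19.8 and 14.2 to 374, 345 and 325 in WT, from 17, 20.3 and 17.5 to 313, 361 and 365 in E1, and from 27.7, 18.7 and 15.8 to 392, 392 and 432 in F2. The log2 changes were 4.23 ± 0.18, 4.17 ± 0.18 and 4.26 ± 0.18. IFIT2 and IFIT3 had at most 2 reads in a DMSO library. With tazemetostat IFIT3 was 466, 538 and 435 in WT, 361, 383 and 442 in E1 and 392, 359 and 408 in F2, and its rise in F2 was at least 357-fold. IFIT2 was 540, 501 and 514 in WT, 199, 255 and 243 in E1 and 326, 266 and 331 in F2, with every WT library above every RB1-null library.

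The IFITM proteins stop viruses from fusing with cell membranes, and their genes went different ways. IFITM1 was 1646, 1711 and 1613 in WT in DMSO and 1577, 1462 and 1496 with tazemetostat. It fell in E1, from 1677, 1997 and 1434 to 484, 506 and 475 (log2 change −1.79 ± 0.10, limma adjusted p = 2.5e-11), and went from 1375, 1468 and 1234 to 933, 958 and 771 in F2 (−0.62). The 3 lines were thus ordered WT, F2, E1 with tazemetostat, with no overlap, while in DMSO E1 overlapped WT.

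IFITM2 fell in E1, from 157, 175 and 129 to 67.1, 60 and 68.8 (log2 change −1.21 ± 0.15, limma adjusted p = 1.5e-06). In WT it went from 170, 142 and 147 to 85.7, 78.6 and 80 (−0.90), which passed −1 when every library was scaled to the same total. In F2 it was 168, 170 and 141 in DMSO and 197, 139 and 151 with tazemetostat, with overlapping groups. IFITM3 was 4166, 4297 and 3833 in WT in DMSO and 7912, 7960 and 7747 with tazemetostat (0.94), and 4510, 5170 and 3339 against 3676, 3433 and 3489 in E1 (−0.27). In F2 it was 4180, 5199 and 4156 against 7016, 5919 and 5867 (0.48). BST2 (tetherin), which holds virus particles on the cell surface, changed by 0.46, −0.47 and −0.16 in WT, E1 and F2. The 3 IFITM genes are close paralogs and exons of IFITM1 and IFITM2 overlap on the same strand, so that reads can be assigned to the wrong gene.

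Of the IFI genes, IFI6, whose protein lies in the endoplasmic reticulum and mitochondria and blocks virus replication, moved in opposite directions. In WT it was 657, 680 and 667 in DMSO and 1166, 1122 and 1138 with tazemetostat. In E1 it fell from 748, 1080 and 751 to 382, 339 and 370, and in F2 it went from 501, 478 and 416 to 300, 285 and 302. No groups overlapped within a line. The log2 change was 0.77 ± 0.11 in WT, −1.22 ± 0.11 in clone E1 and −0.65 ± 0.11 in clone F2 (limma adjusted p = 7.6e-06, 2.8e-08 and 7.6e-05), of which only that of E1 passes the size limit.

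IFI27, a small mitochondrial protein gene, rose in WT from 36.7, 24.5 and 31.2 to 58.1, 55.2 and 75.1 (log2 change 1.01), and the call was lost without WT DMSO replicate 2 (0.86), without WT tazemetostat replicate 3 (0.88) and under 3 other settings. Its changes were 0.38 in both E1 and F2. IFI35, which regulates innate signalling, changed by 0.20, −0.31 and −0.12. IFI44 and IFI44L had no reads in DMSO. With tazemetostat they reached 7.07 and 6.8 normalized counts, both in F2, where each was at least 4.46-fold higher.

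The OAS enzymes make a messenger of the antiviral response, and 2 of the 3 tested rose in every line. Among all genes tested, 14.5%, 11.3% and 13.3% rose in WT, E1 and F2. OAS1 and OAS2 entered the test only through their levels with tazemetostat, OAS2 from at most 6 reads in a DMSO library. The other tested gene, OAS3, was not called. OAS1 had no reads in 8 DMSO libraries and 1 in the other. With tazemetostat it was 114, 102 and 83.7 in WT, 62.8, 50.3 and 76.3 in E1 and 57.3, 54.5 and 62 in F2, so that every WT library lay above every RB1-null library. OAS2 was 5.24, 4.71 and 0.946 in WT in DMSO and 73.9, 74.8 and 87.4 with tazemetostat, a change of 21.7-fold.

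OAS2 went from 1.79, 1.93 and 0.974 to 20.2, 22.2 and 38.6 in E1 and from 1.02, 1.04 and 1.21 to 42.7, 36.3 and 48.1 in F2. OAS3, which lies between OAS1 and OAS2 on the chromosome, was expressed at 1051 to 1587 normalized counts in all 9 DMSO libraries and changed by 0.21, 0.46 and 0.80 in WT, E1 and F2. OASL, the member without this enzyme activity, stayed between 0 and 3.74.

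Of the other antiviral effectors, SAMD9, SAMD9L, XAF1 and RSAD2 rose from the floor, MX1, MX2, EPSTI1 and CMPK2 stayed at it, and ISG20 was expressed in DMSO. SAMD9 and SAMD9L, which restrict poxviruses and slow cell growth, had 1 read between them in the DMSO libraries. SAMD9 was 159, 149 and 170 with tazemetostat in WT, 139, 175 and 220 in E1 and 282, 251 and 281 in F2, at least 172-fold, 191-fold and 250-fold higher. SAMD9L was 205, 234 and 208 in WT, 176, 192 and 203 in E1 and 234, 222 and 271 in F2. XAF1, which promotes cell death, was 2.62, 1.88 and 1.89 in WT in DMSO, 0 in all E1 libraries and 2.05, 1.04 and 0 in F2. It rose to 117, 157 and 103 in WT, 101, 70.6 and 69.7 in E1 and 184, 207 and 228 in F2, where all libraries exceeded those of the other lines.

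RSAD2 had 1 read in the 9 DMSO libraries. With tazemetostat it was 98.5, 88.9 and 73.9 in WT, 26.6, 31.9 and 34.9 in E1 and 28.2, 20.2 and 21.3 in F2. All WT libraries stood clear above the RB1-null ones, and the rise was at least 95.8-fold in WT and 21.4-fold in F2. ISG20, an exonuclease that degrades viral RNA, rose in WT from 59.4, 73.5 and 57.7 to 159, 161 and 150 (log2 change 1.30). It went from 36.9, 53.9 and 44.9 to 96.1, 93.9 and 74.9 in F2 (0.96) and from 60.7, 66.6 and 39 to 82, 53.2 and 65 in E1, where the groups overlapped. MX1 and MX2, dynamin-like GTPases that trap virus capsids and are standard markers of a type I response, had no reads in any of the 18 libraries. EPSTI1 had at most 1 read and CMPK2 at most 2.

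ISG15 is a ubiquitin-like protein that UBE2L6 and HERC5 attach to other proteins and USP18 removes. ISG15 rose in WT, from 642, 559 and 505 to 1094, 1254 and 1308 (log2 change 1.10 ± 0.23, limma adjusted p = 4.8e-04). It was 729, 1146 and 427 in E1 in DMSO and 624, 460 and 494 with tazemetostat, and 463, 642 and 467 against 595, 522 and 524 in F2. In both clones the groups overlapped. The rise in WT was 0.95 when every library was scaled to the same total. UBE2L6 changed by 0.78, −0.01 and 0.42 in WT, E1 and F2, USP18 by −0.37, −0.12 and −0.23, and HERC6 by 0.76, 0.51 and 0.91, none past the limits.

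TRIM22, a ubiquitin ligase active against viruses, rose in WT from 22.7, 13.2 and 25.6 to 102, 86 and 86.2 and in F2 from 19.5, 7.26 and 19.4 to 40.8, 46.4 and 45.3 (log2 change 2.15 and 1.58). E1 already stood at 89.3, 89.8 and 115 in DMSO and reached 159, 157 and 161 (0.70, limma adjusted p = 0.051). TRIM21, a ligase that recognises antibody-coated virus, was called in WT alone, yet its changes were 1.01, 0.98 and 1.00, and the response differences between the lines were −0.03 to −0.01. The call in WT was lost under 5 settings, among them the omission of WT DMSO replicate 3 or of WT tazemetostat replicate 1 or 2 (0.97 to 0.99).

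The 3 guanylate-binding proteins, GTPases that attack the vacuoles of pathogens and are typical targets of interferon gamma, rose in all lines. All 3 were at the floor in DMSO, entered the test only through their levels with tazemetostat and had to differ. Among all genes tested, 14.5%, 11.3% and 13.3% rose in WT, E1 and F2. GBP1 had no reads in DMSO in WT and F2 and 1 in each E1 library. With tazemetostat it was 886, 875 and 816 in WT, 572, 586 and 640 in E1 and 602, 524 and 609 in F2, at least 938-fold and 534-fold higher in WT and F2. GBP2 was 45.3, 58.9 and 43.1 in WT, 17, 23.2 and 18.8 in E1 and 32, 25.2 and 27.7 in F2, against no reads in DMSO. GBP4 was 261, 257 and 250 in WT, 188, 221 and 250 in E1 and 128, 115 and 154 in F2. WT lay above F2 for all 3 genes.

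PARP9 and DTX3L work as a complex in interferon signalling and DNA repair, and their exons overlap on opposite strands. DTX3L rose in F2, from 1661, 1652 and 1619 to 3375, 3325 and 3514 (log2 change 1.05). Its changes were 0.96 in WT and 0.60 in E1, those of PARP9 were 0.72, −0.00 and 0.58 in WT, E1 and F2, and those of PARP14, another ADP-ribosyltransferase, were 0.30, 0.32 and 0.48. PSMB9 is a catalytic subunit of the immunoproteasome, which cuts proteins into peptides for MHC class I. It rose in F2 from 449, 461 and 398 to 1045, 946 and 1006 (1.20) and went from 519, 561 and 521 to 1078, 1070 and 1000 in WT (0.97). E1 stood at 1780, 2493 and 1659 in DMSO and 1787, 1885 and 1773 with tazemetostat, with overlapping groups. PSMB8, its partner subunit, stayed at 1.75 to 14.8 and was not tested, and the exons of the pair overlap on opposite strands.

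In DMSO, 3 members were higher in E1 than in WT and 1 was lower. TLR3 (log2 difference 3.29 ± 0.37), TRIM22 (2.24 ± 0.28) and PSMB9 (1.86 ± 0.11) were higher, and the groups did not overlap for any of them. The limma adjusted p was 9.1e-06 for TRIM22 and 3.5e-10 for PSMB9. TLR3 entered the test only through its levels in E1 and had to differ, so that no p-value is given for it. XAF1 was lower (−1.64), which compares 0 reads with 7, and the difference was −0.51 with a pseudocount of 5. Over all genes tested, 2.35% were higher and 2.69% lower. Between F2 and WT in DMSO no member was called higher or lower by limma, edgeR or DESeq2, where 0.885% of all genes were higher and 2.09% lower. At an unadjusted limma p under 0.05 there were 12 members (25% of those tested), against 32.7% of all genes. The median differences of the members were 0.06 for E1 and −0.05 for F2. Both comparisons use the same 3 WT libraries.

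The response to tazemetostat, meaning the log2 change in one line minus that in another, was smaller in E1 than in WT for 12 members and larger for none. Over all genes tested, 5.21% had a smaller and 4.79% a larger response in E1. The differences with the largest size were those of IFI6 (−1.99 ± 0.16), RSAD2 (−1.78 ± 0.39), IFIT2 (−1.70 ± 0.49), IFITM1 (−1.65 ± 0.14) and ISG15 (−1.54 ± 0.33), with limma adjusted p = 3.0e-08, 0.0018, 0.012, 9.9e-08 and 0.0014. The others were GBP1 (−1.48), TRIM22 (−1.45), GBP2 (−1.27), IFITM3 (−1.22), IFIT1 (−1.17), PSMB9 (−1.07) and ISG20 (−1.02). For TRIM22 and PSMB9 the level in DMSO was already higher in E1, as given above.

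The median response difference of the 48 members was −0.43, against 0.01 over all genes. For GBP1, GBP2, IFIT2 and RSAD2, with at most 2 reads in a DMSO library, the response depends on the pseudocount. On the recovered reads edgeR and DESeq2 gave them differences at least as large, from −3.63 to −1.31, but called none (adjusted p 0.056 to 1), and these tools called the other 8, edgeR with XAF1 as a larger response. Without E1 DMSO replicate 2, which was the highest of its group for ISG15, IFI6 and PSMB9, the difference for PSMB9 was −0.90, under the size limit. That for ISG20 lost its call, at −0.87 in the smallest case, without any 1 of WT DMSO replicate 1 or 3, WT tazemetostat replicate 2, E1 DMSO replicate 1 or 2 and E1 tazemetostat replicate 2. When every library was scaled to the same total, 10 members had a smaller response in E1, without PSMB9 (−0.99) and ISG20 (−0.93). A pseudocount of 5 ended the calls of ISG20 (−0.99) and GBP1 (−0.77), and GBP2 missed the threshold with no filter on low values (adjusted p = 0.068).

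The response of F2 was smaller than that of WT for 4 members and larger for 2, against 2.66% smaller and 4.82% larger over all genes. IFI6 (−1.42 ± 0.16), RSAD2 (−1.87 ± 0.39), OAS1 (−1.15 ± 0.40) and ISG15 (−1.02 ± 0.33) were smaller, with limma adjusted p = 2.6e-06, 0.0016, 0.042 and 0.029. TMEM173 (1.57) and XAF1 (1.49) were larger. edgeR and DESeq2 each called 3 of these, IFI6, ISG15 and TMEM173. When every library was scaled to the same total, 2 members were smaller and 3 larger, with IFITM2 added to the larger ones. ISG15 had an adjusted p above 0.05 when any of WT DMSO replicate 2 or 3, WT tazemetostat replicate 2 or 3, F2 DMSO replicate 2 or F2 tazemetostat replicate 2 or 3 was left out (0.053 to 0.081). OAS1 lost its call without any 1 of the 12 libraries of these groups (0.06 to 0.1) other than WT tazemetostat replicate 3 and F2 DMSO replicates 1 and 2. Both response comparisons share the 6 WT libraries.

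Between the RB1-null clones, 4 members responded less in E1 than in F2 and none more, against 4.02% and 1.78% over all genes. These were TMEM173 (−1.59 ± 0.19), PSMB9 (−1.30 ± 0.15), IFITM2 (−1.23 ± 0.21) and IFITM1 (−1.17 ± 0.14), with limma adjusted p = 9.3e-06, 8.3e-06, 4.3e-04 and 1.3e-05. edgeR and DESeq2 called the same 4 genes. The median over the 48 members was −0.32, against 0.00 over all genes.

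**Figure D5:**
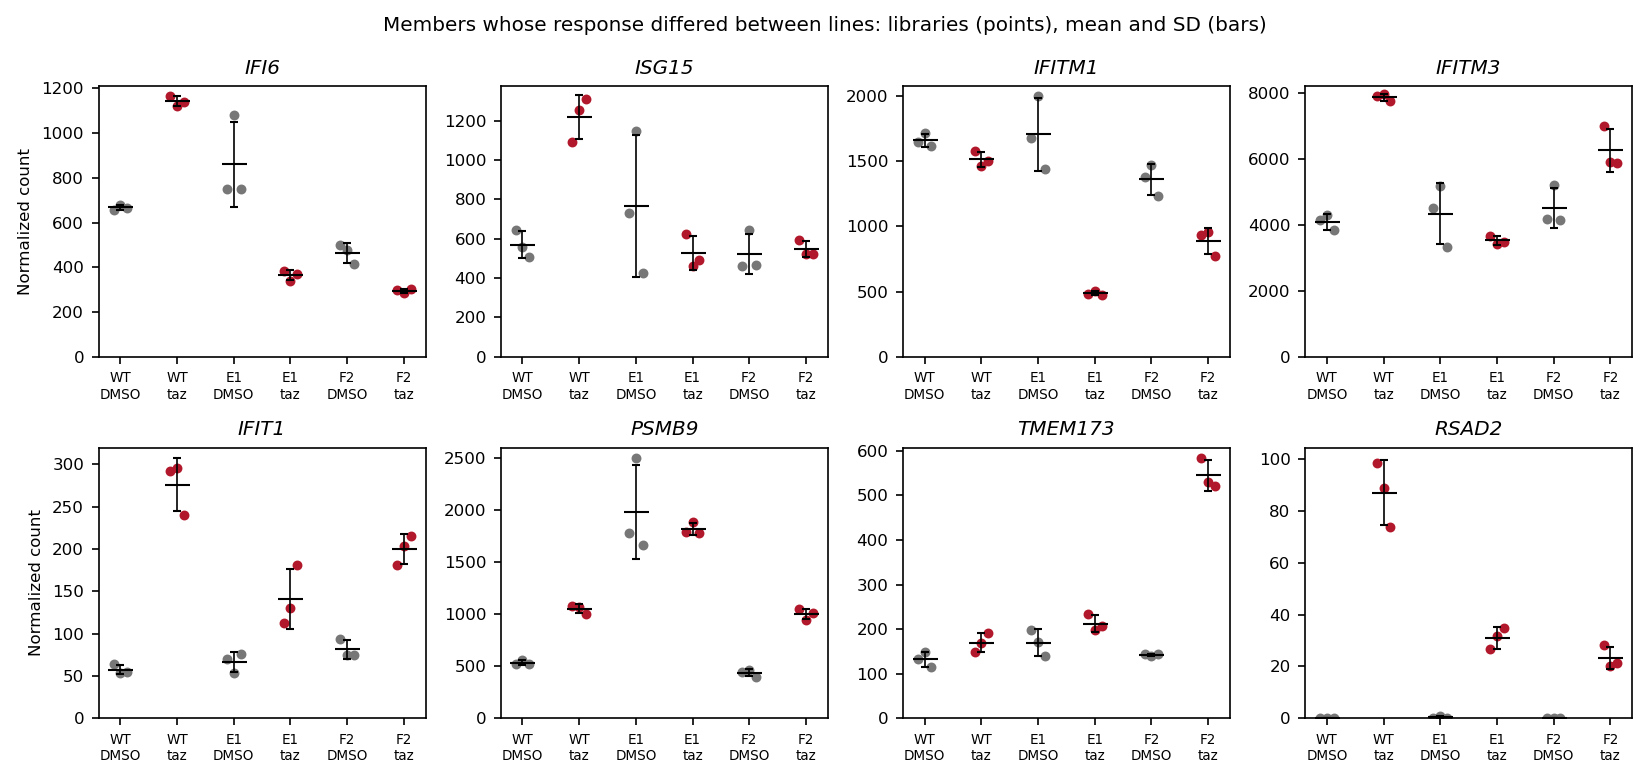
Normalized count of 8 genes in each library (points; grey DMSO, red tazemetostat) by line, with the mean and SD of 3 libraries (bars), on axes that start at 0. IFI6 goes up in WT and down in E1 and F2, ISG15 goes up in WT alone, and the 3 F2 libraries of TMEM173 with tazemetostat lie between 520 and 584, above all others.

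The levels with tazemetostat were also compared between lines, without the DMSO libraries. Against WT, 10 members were lower in E1 and 1 was higher, with 5.95% lower and 5.4% higher over all genes. The lower ones were IFI6 (−1.65), IFITM1 (−1.63), OAS2 (−1.56), RSAD2 (−1.45), GBP2 (−1.27), ISG20 (−1.24), ISG15 (−1.22), IFITM3 (−1.16), IFIT2 (−1.16) and DHX58 (−1.04). The higher one was TLR3 (3.06 ± 0.37), which entered the test only through its levels in E1 and had to differ. Among these 11 called genes the groups did not overlap, which was not counted over all genes, and edgeR called the same genes. DHX58 fell under the size limit without WT tazemetostat replicate 3 (−0.93) or E1 tazemetostat replicate 3 (−0.99).

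F2 was lower than WT with tazemetostat for 5 members and higher for 1, against 4.97% lower and 7.31% higher over all genes. IFI6 (−1.95 ± 0.11), RSAD2 (−1.87 ± 0.28), TLR3 (−1.45 ± 0.37), ISG15 (−1.15 ± 0.23) and TRIM22 (−1.03 ± 0.28) were lower and TMEM173 (1.68 ± 0.14) was higher. TLR3 overlapped between the groups, with 6 reads in F2 against 19 in WT. TRIM22 fell under the size limit without WT tazemetostat replicate 1 (−0.95) or F2 tazemetostat replicate 1 (−0.97). With every library scaled to the same total 4 members were lower and 3 higher, the latter with IFITM2 and IRF9 added. The members had a median of −0.33 in E1, where that of all genes was −0.01, and of −0.38 in F2, where it was −0.00, and both comparisons use the same 3 WT libraries.

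Other genes of the pathway were read from lists. Of 13 further receptor and JAK-STAT genes, all tested, none was called in E1 or F2, and the median changes with tazemetostat were 0.10, 0.07 and 0.11 in WT, E1 and F2. Of the further sensing and induction genes, 15 were tested and above the floor in DMSO. Of these, TNFAIP3, NLRC5, IKBKE and TRAF6 rose in WT, and TNFAIP3 and NLRC5 alone in both clones. That is 4, 2 and 2 of 15, where 14.5%, 11.3% and 13.3% of all genes rose. TNFAIP3 (A20), a brake on NF-κB signalling, had the largest changes of these, at 4.87, 5.32 and 4.42. It went from 162, 160 and 180 to 5038, 4666 and 4991 in WT. NLRC5 is an activator of MHC class I genes.

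Of 58 further interferon-induced genes 44 were tested, and 24 rose in WT, 20 in F2 and 16 in E1, with none lower in any line. Among these, 6 genes were at the floor in all DMSO libraries (DDX60, DDX60L, PLSCR1, SP100, IDO1 and CASP1). They entered the test only through their levels with tazemetostat. Of the other 38, 18 rose in WT, 14 in F2 and 10 in E1, where 14.5%, 13.3% and 11.3% of all genes rose. Of these called genes, APOL1, APOL3, APOL6, CCL5, CD274, GBP3, TRIM38 and TMEM140 each averaged under 10 normalized counts over the DMSO libraries. They too entered the test only through their levels with tazemetostat, so that part of each count was fixed in advance. The median changes of the 44 were 1.18, 0.40 and 0.84 in WT, E1 and F2 and those of the 38 were 0.88, 0.38 and 0.66, against 0.03, 0.02 and 0.02 over all genes. The largest changes in WT were those of DDX60L (8.19), SP100 (8.06) and IDO1 (7.47). In E1 they were those of DDX60L (8.19), SP100 (8.11) and DDX60 (7.39), and in F2 those of DDX60 (9.24), DDX60L (9.01) and SP100 (8.84). All of these belong to the 6 genes at the floor in DMSO, which had to differ, and the sizes depend on the pseudocount. IDO1, a tryptophan-degrading enzyme typical of interferon gamma, had no reads in DMSO and reached 228, 187 and 128 in WT, 24.5, 33.8 and 46.2 in E1, and 38.8, 42.4 and 62.9 in F2.

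On this list 11 of the 44 genes responded less in E1 than in WT and none more, where 5.21% and 4.79% of all genes did. Without the 6 genes at the floor in DMSO, 9 responded less. Between F2 and WT 2 responded less and 3 more, against 2.66% and 4.82% over all genes.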

How the data were processed

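The authors deposited a table of normalized gene counts (a signal that is never negative) for 18 libraries. Trim Galore 0.4.4, STAR 2.6.0a, HTSeq and DESeq2 were used with build hg19, per the submitters' processing notes, and poly(A)-selected stranded libraries were sequenced as paired ends, per the labels' protocols. The strand setting of the counting is not given in the sources used here, so that reads of overlapping genes may be shared.

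Dividing each library's values by their step gave whole reads for 100% of values (tolerance 1e-06), 25709489 to 39314860 reads per library. Values were tested as log2(value + 1) with limma 3.58.1 (R 4.3.3), 6 group means over 18 libraries, for 16154 genes with a mean of at least 10. Called means a change of at least 1 in size, in log2, with a Benjamini-Hochberg adjusted p under 0.05. Such changes understate those of low genes. Folds from 0 reads use a floor of 3 reads over the group, and ratios from 1 to 3 reads carry exact 95% counting intervals, which cover counting error only.

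The members, the further gene lists, the markers and the rule for naming genes (the sensors, the signalling genes, every called member and the 3 largest changes of a list) were chosen with earlier results of these data known. Alternatives were pseudocounts of 0.5 and 5, other filters, no limit on the change, equal totals, the groups of a comparison alone, a replicate block, each library left out, and edgeR 4.0.16 and DESeq2 1.42.0 on the recovered reads. The comparisons of levels with tazemetostat between lines were added after seeing the data. Fits were checked on simulated counts.

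Replicate numbers come from the sample titles. For F2 against WT in DMSO all 3 same-numbered pairs deviated together (correlations 0.108 to 0.375), and the count of called members was 0 with and without the replicate block. Some results on other genes of the pathway are not reported here.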

Additional observations from a re-analysis of the deposited data

Results flagged for a closer look

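For 22 response differences among the members, the limma test of the difference itself passed the limits. Among all genes tested, 5.21% had a smaller and 4.79% a larger response in E1 than in WT. These shares were 2.66% and 4.82% for F2 against WT, and 4.02% and 1.78% for E1 against F2. Between E1 and WT the log2 differences were −1.99 for IFI6, −1.78 for RSAD2, −1.70 for IFIT2, −1.65 for IFITM1, −1.54 for ISG15, −1.48 for GBP1, −1.45 for TRIM22, −1.27 for GBP2, −1.22 for IFITM3, −1.17 for IFIT1, −1.07 for PSMB9 and −1.02 for ISG20. Between F2 and WT they were −1.87 for RSAD2, −1.42 for IFI6, −1.15 for OAS1, −1.02 for ISG15, 1.49 for XAF1 and 1.57 for TMEM173. Between E1 and F2 they were −1.59 for TMEM173, −1.30 for PSMB9, −1.23 for IFITM2 and −1.17 for IFITM1. Those of GBP1, GBP2, IFIT2 and RSAD2 in E1 and of OAS1, RSAD2 and XAF1 in F2 start from at most 3 reads in a DMSO library, and edgeR and DESeq2 called none of them. The differences of ISG20 and PSMB9 between E1 and WT, and of ISG15 between F2 and WT, lost their call when some single libraries were left out.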

How the results depend on the processing

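Over 1819 single-gene values recomputed under the alternatives, 1746 kept their call, 73 fell under a limit and 0 changed direction. Of 107 member calls 19 were lost under at least 1 alternative, and of the 64 calls with tazemetostat in the 3 lines 4 were lost (IFI27, ISG15 and TRIM21 in WT, and IFIT1 in E1). With no limit on the log2 change, the members called with tazemetostat numbered 44 in WT, 32 in E1 and 39 in F2, those called in DMSO 13 for E1 and 5 for F2, those with a response that differed 21 between E1 and WT, 18 between F2 and WT and 13 between the clones, and those different from WT under tazemetostat 32 for E1 and 30 for F2. In the same order these are 91.7%, 66.7%, 81.2%, 27.1%, 10.4%, 43.8%, 37.5%, 27.1%, 66.7% and 62.5% of the members tested, against 64.2%, 46.8%, 52.2%, 23.2%, 20.2%, 35.4%, 26.9%, 14.8%, 51.8% and 53.1% of all genes. For the response of F2 against WT, edgeR and DESeq2 each called 3 members. A mean of at least 50 left 7 members different between E1 and WT under tazemetostat, since fewer genes were tested. Leaving out 1 library gave 0 to 1 called members for F2 against WT in DMSO, the 1 appearing without WT DMSO replicate 3 or F2 DMSO replicate 1. Scaling every library to the same total moved the median of all genes by −0.15 for tazemetostat in WT, by 0.12 for the response of F2 against WT and by 0.15 for F2 against WT under tazemetostat. A replicate block gave the same number of called members in all 10 comparisons (22 with tazemetostat in WT), and outside F2 against WT in DMSO at least 1 same-numbered pair of libraries in each comparison had a correlation of 0.1 or less. For the response of F2 against WT, which holds the pairs of that comparison too, 11 of 18 pairs were over 0.1. Members with fewer than 4 reads in DMSO limit every response difference that rests on them.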
